A study of Mus musculus with 6 samples.

Results

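The TIE and VEGF receptor systems, represented by 10 genes, were followed in the mouse left ventricle after pressure overload: the receptors Tek, Tie1, Kdr and Flt1, the angiopoietins Angpt1 and Angpt2, and the VEGF family ligands Vegfa, Vegfb, Vegfc and Pgf. They were chosen by name, with earlier results of these data known, so their counts beside those of all genes are descriptive. Each of the 10 had 1 record among the 24602 genes of the deposited table. The samples were 3 of the left ventricle taken 5 weeks after transverse aortic coarctation (TAC) and 3 taken 5 weeks after a sham operation. TAC is a narrowing of the aorta that loads the ventricle with pressure. All samples were from wild-type mice, with no transgene or drug given in the labels. Neither the age of the animals nor whether every sample is a different mouse is given, so the p-values rest on a spread between samples that may be technical.

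Endothelial cells line blood vessels and carry both receptor systems. Angiopoietin 1, released by neighbouring cells, activates the receptor tyrosine kinase encoded by Tek (also called TIE2) and keeps vessels quiet and tight. Angiopoietin 2 is stored in endothelial cells and competes for the same receptor, and TIE1 is a related receptor that binds neither strongly by itself and modulates TIE2. VEGF-A drives vessel growth mainly through VEGFR2, encoded by Kdr, while VEGFR1, encoded by Flt1, binds VEGF-A tightly and signals weakly. VEGF-B and placental growth factor bind VEGFR1, and VEGF-C acts mainly on VEGFR3, the receptor of lymphatic vessels.

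Tek was higher in TAC and was the member that passed the test, at 1.62-fold the sham level. Of the other members with enough signal to be tested, Flt1, Kdr and Vegfa had positive estimates that did not pass, Tie1 had an estimate near 0, and Vegfb and Pgf had negative estimates that did not pass. In the whole table, 8795 genes had a mean FPKM, a level corrected for transcript length and depth, of 1 or more over the 6 libraries and were tested. The test was edgeR's quasi-likelihood test with Benjamini-Hochberg adjustment, and a gene was called at an adjusted p under 0.05. Of the 10 members 7 were tested and 1 was called, against a background of 6.99% of all tested genes called in either direction, 4.71% called higher and 2.29% called lower in TAC. Higher genes made up 67.3% of all calls, against 45.5% when libraries were scaled by their totals and 52.5% once GC and length trends had been taken out. The median log2 fold change of the 7 was 0.44 and that of all tested genes was -0.01, and 4 of the 7 had an unadjusted p under 0.05, against 28.1% of all tested genes. DESeq2 called 2 of the 7 and limma 0, against 18.8% and 5.82% of the genes they tested. Angpt1, Angpt2 and Vegfc had mean FPKM of 0.570, 0.359 and 0.989 and fell below the filter. Their tests come from a second fit over 15926 genes kept by edgeR's filterByExpr, in which 4.86% of genes were called, 3% higher and 1.86% lower. None of the 3 was called there by edgeR, and 1, Vegfc, had an unadjusted p under 0.05, against 26.6% of the genes in that fit. None of them was called in any of 13 alternatives either, DESeq2 and limma included. The median log2 fold change of the 8795 genes was -0.11 in that fit. The fit was added after the data were seen, as was the removal of the trends from ratios given later.

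Estimated counts summed to between 64026540 and 69992502 in TAC libraries and between 64023153 and 68121413 in sham libraries. Values per sample are given as CPM, a count relative to library depth, scaled by the trimmed mean of M-values (TMM). Genes of the mitochondrial chromosome took 22.6% to 29.2% of counts in TAC libraries and 14.8% to 19.2% in sham libraries, and the part of that difference in the results was not tested. TAC replicate 3 stood apart: it held the lowest of 6 CPM values for 5 of the 10 members (Tie1, Angpt1, Angpt2, Vegfb and Pgf) and the highest for 3 (Tek, Vegfa and Flt1). The libraries also differed in how read levels varied with GC content and transcript length, so values after their removal stand beside the members they moved most. Every member's exons were free of other records except those of Angpt1, of which 14.2% lay under the record Gm17473 on the other strand.

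Per length, the 10 genes covered a wide span of levels. Vegfb had the highest mean, 180.2 FPKM over the 6 libraries, above 99.1% of the genes in the table. Tie1 followed at 36.5, Kdr at 12.4, Vegfa at 12.4, Tek at 4.11, Flt1 at 3.94 and Pgf at 2.34 FPKM. In this order the ranges over libraries overlapped between Kdr and Vegfa, Tek and Flt1, Flt1 and Pgf, and Pgf and Vegfc. Vegfb lay clear of Tie1, Tie1 of Kdr, Vegfa of Tek, Vegfc of Angpt1, and Angpt1 of Angpt2. The angiopoietins were the lowest members, and each was still counted in every library: 177, 233 and 180 estimated counts of Angpt1 in TAC against 238, 207 and 216 in sham, and 112, 119 and 77 of Angpt2 in TAC against 76, 104 and 73 in sham. Vegfb made up 89.3 ± 4.04% of the summed FPKM of Vegfa, Vegfb, Vegfc and Pgf in TAC and 93.4 ± 2.27% in sham (SD, n = 3 each), and Vegfa 8.77 ± 3.97% in TAC and 5.05 ± 1.62% in sham. In a whole-tissue sample, fewer or more cells of a type and less or more RNA per cell cannot be told apart.

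**Figure D1:**
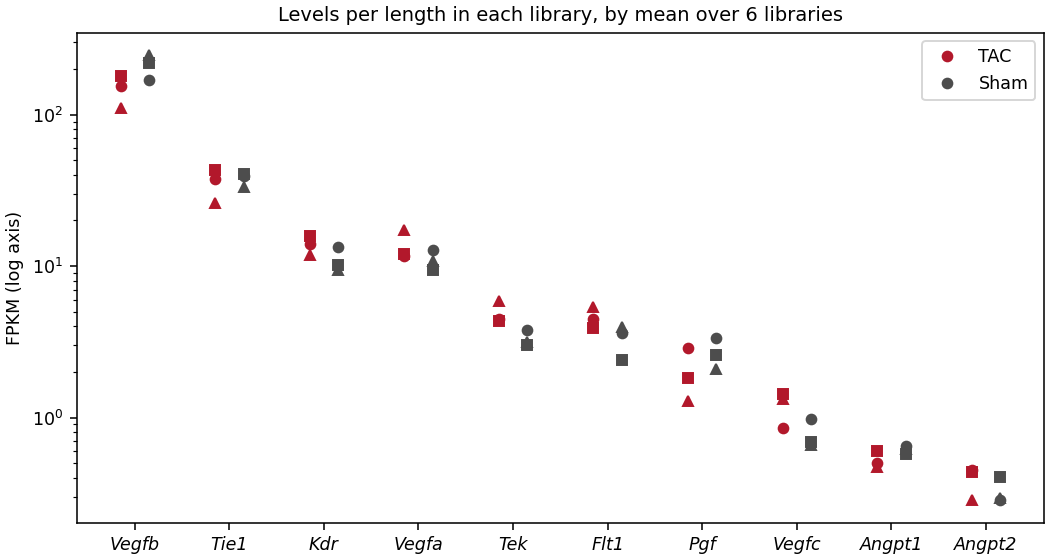
FPKM of each member in each library on a log axis, ordered by the mean over 6 libraries, with TAC (red) left of sham (grey) and circle, square and triangle for replicates 1, 2 and 3. Vegfb at 110.7 to 248 FPKM is the highest member and Angpt2 at 0.284 to 0.450 FPKM the lowest.

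Among the receptors, Tek lies on the forward strand of chromosome 4 (94739289 to 94874976, GRCm38). Tek had 24.8, 23.8 and 28.6 CPM in the TAC libraries, against 18.4, 14.01 and 15.2 CPM in the sham libraries. All TAC libraries were above all sham libraries. Tek averaged 25.8 ± 2.52 CPM in TAC and 15.9 ± 2.27 CPM in sham (SD, n = 3 each). Its log2 fold change was 0.70 ± 0.17 (SE, edgeR adjusted p = 0.0445), with a 95% interval of 0.32 to 1.08. After removal of the GC and length trends Tek still rose (log2 fold change 0.54, edgeR adjusted p = 0.0449), and its groups did not overlap, at 24.7, 25.1 and 22.7 CPM in TAC against 17.9, 16.1 and 16.0 CPM in sham. The adjusted p was close to the threshold: over 15 alternative fits it ran from 0.00186 to 0.182 and 4 passed, while the log2 fold change stayed between 0.44 and 0.84. Among these the call was kept without TAC replicate 3 (0.61, edgeR adjusted p = 0.0317), a fit that called 19.4% of all tested genes. It was lost without each of the other 5 libraries (edgeR adjusted p of up to 0.182).

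Tie1, the paralogue of Tek, lies on the reverse strand of the same chromosome (118471191 to 118490061). Tie1 had 215.5, 246.8 and 130.9 CPM in the TAC libraries, against 200.4, 195.5 and 167.5 CPM in the sham libraries. The groups overlapped, with TAC replicate 3 the lowest of all 6 libraries. Its log2 fold change was 0.07 ± 0.23 (edgeR adjusted p = 0.866, 95% interval -0.44 to 0.59), and was -0.075 when libraries were scaled by their totals alone and 0.31 after removal of the GC and length trends, with the groups still overlapping. The interval holds changes as large as that of Kdr, so the test does not show that Tie1 stayed level. The log2 fold change of Tie1 was 0.30 without TAC replicate 3 and -0.12 without TAC replicate 2.

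Kdr, on the reverse strand of chromosome 5 (75932827 to 75978458), had 148.4, 167.0 and 110.1 CPM in the TAC libraries, against 124.3, 90.2 and 87.4 CPM in the sham libraries. TAC replicate 3 lay below sham replicate 1, so the groups overlapped. Its log2 fold change was 0.50 ± 0.20 (edgeR adjusted p = 0.154, 95% interval 0.03 to 0.96). Without TAC replicate 3 Kdr was called as well, at a log2 fold change of 0.65 ± 0.16 (edgeR adjusted p = 0.0296), in a fit that called 19.4% of all tested genes. Over 15 alternatives the adjusted p of Kdr ran from 0.0296 to 0.411. Flt1, on the reverse strand of chromosome 5 (147561604 to 147726011), had 70.6, 61.5 and 74.5 CPM in the TAC libraries, against 50.1, 31.8 and 54.6 CPM in the sham libraries. All TAC libraries were above all sham libraries, with sham replicate 2 the lowest. Its log2 fold change was 0.60 ± 0.21 (edgeR adjusted p = 0.107, 95% interval 0.12 to 1.07), and DESeq2 called it (adjusted p = 0.0473; 0.0473 to 0.264 over 15 alternatives). The table has 1 value per gene, so soluble and membrane-bound forms of Flt1 are not separated. Groups without overlap were found for Tek, Flt1 and Vegfa, 3 of 7 tested members, all higher in TAC, against 34.8% of all tested genes (17.7% higher and 17.1% lower). In FPKM only Tek of these 3 separated the groups: TAC replicate 2 had 3.88 FPKM of Flt1 against 3.95 in sham replicate 3, and TAC replicate 1 had 11.6 FPKM of Vegfa against 12.8 in sham replicate 1.

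**Figure D2:**
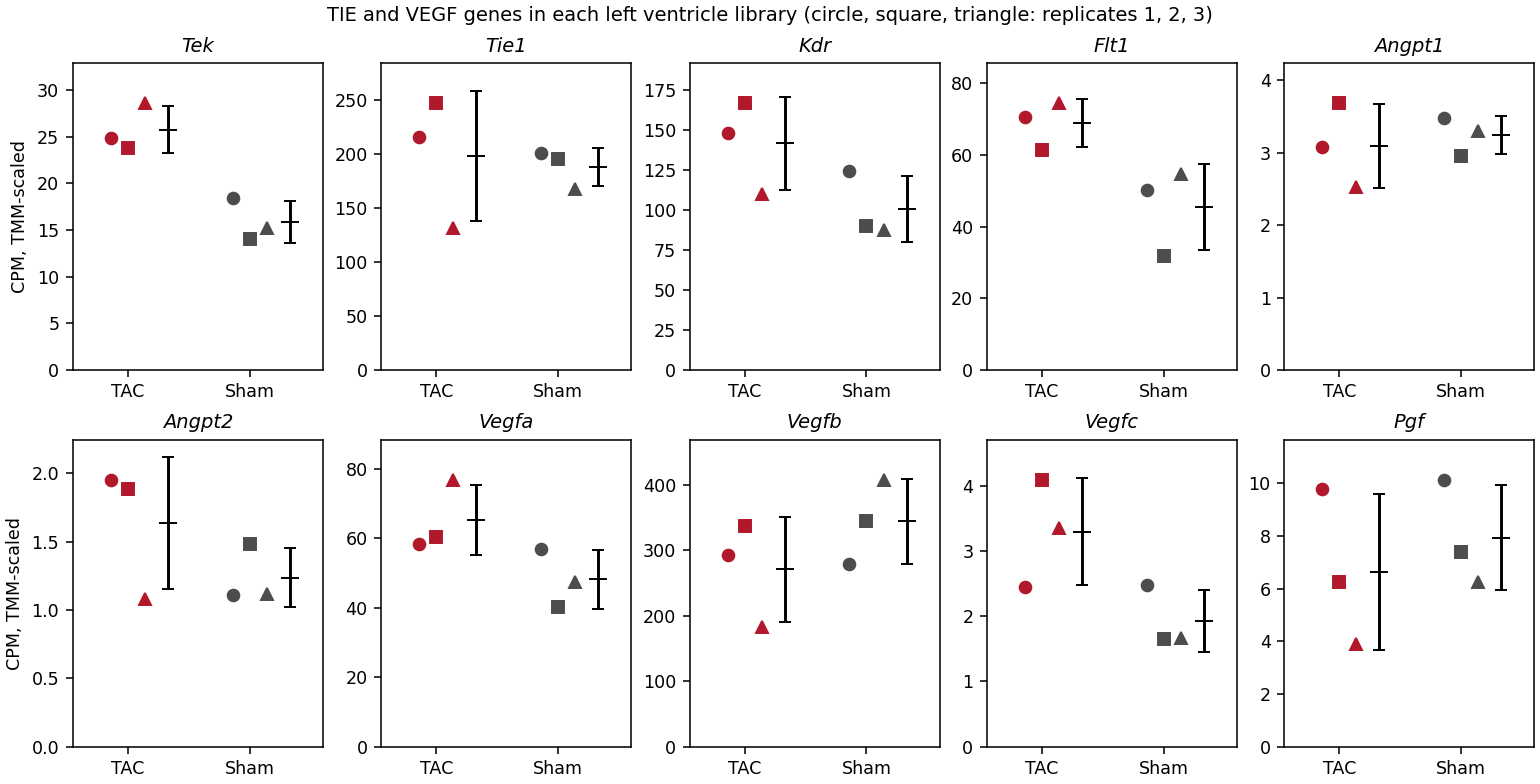
TMM-scaled CPM of each member in each library, TAC (red) left of sham (grey), with circle, square and triangle for replicates 1, 2 and 3 and the bar showing mean ± SD (n = 3). Tek, at 23.8 to 28.6 CPM in TAC against 14.01 to 18.4 CPM in sham, Flt1 and Vegfa are the members whose groups do not overlap in CPM.

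The promoters of the 4 receptor genes are shown because the receptors hold the member that was called and a close paralogue that was not. Each sequence runs from 250 bases before to 50 bases after a transcription start in RefSeq (GRCm38.p6), 5′ to 3′ on the gene's own strand. Capitals mark matches, on either strand, to AGGAAG or CGGAAG. These are flanked forms of GGAA, the core bound by the ETS family of transcription factors, which includes regulators of endothelial genes. GGAA with other flanks was not marked. They are chr4:94739039-94739338 on the forward strand for Tek, chr4:118489800-118490099 on the reverse strand for Tie1, chr5:75978406-75978705 on the reverse strand for Kdr and chr5:147725962-147726261 on the reverse strand for Flt1. The RefSeq start of Tie1 lies 212 bases inside the start in the deposited table, while that of Kdr differs by 3 bases and those of Tek and Flt1 are the same.
Tek: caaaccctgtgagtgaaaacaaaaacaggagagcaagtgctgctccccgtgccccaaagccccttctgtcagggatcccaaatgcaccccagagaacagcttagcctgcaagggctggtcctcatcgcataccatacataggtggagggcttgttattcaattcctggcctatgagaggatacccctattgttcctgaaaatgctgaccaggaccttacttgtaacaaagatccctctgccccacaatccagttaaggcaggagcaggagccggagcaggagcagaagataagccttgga
Tie1: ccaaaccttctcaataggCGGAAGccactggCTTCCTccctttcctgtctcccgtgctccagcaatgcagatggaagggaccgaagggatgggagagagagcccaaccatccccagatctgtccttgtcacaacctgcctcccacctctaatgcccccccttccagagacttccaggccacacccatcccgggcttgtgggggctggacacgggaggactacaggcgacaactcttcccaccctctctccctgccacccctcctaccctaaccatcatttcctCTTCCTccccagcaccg
Kdr: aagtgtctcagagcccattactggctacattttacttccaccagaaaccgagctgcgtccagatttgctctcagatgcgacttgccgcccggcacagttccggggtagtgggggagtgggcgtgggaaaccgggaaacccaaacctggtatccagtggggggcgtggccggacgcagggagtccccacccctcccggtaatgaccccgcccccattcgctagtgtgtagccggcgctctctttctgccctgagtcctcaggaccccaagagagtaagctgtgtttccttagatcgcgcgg
Flt1: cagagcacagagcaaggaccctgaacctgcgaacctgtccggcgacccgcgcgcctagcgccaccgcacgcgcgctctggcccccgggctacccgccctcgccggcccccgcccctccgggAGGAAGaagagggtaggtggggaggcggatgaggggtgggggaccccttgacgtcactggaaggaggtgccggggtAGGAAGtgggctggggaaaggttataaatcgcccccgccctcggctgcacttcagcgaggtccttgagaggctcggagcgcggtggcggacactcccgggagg
The Tie1 window held 3 matches, starting at -232, -219 and 34 from the RefSeq start, and the Flt1 window held 2, starting at -129 and -53. The Tek and Kdr windows held neither AGGAAG nor CGGAAG, while GGAA with other flanks was not counted. Of 32544 promoter windows of the same length in the table, 46.3% held at least 1 match. Promoter records were found for 8 of the 10 members. The letters ACGTG are 1 form of the core bound by hypoxia-inducible factors. They were found in 1 of these members' 10 windows, at -211 in a window for a second, downstream start of Vegfa, against 19.7% of all windows. The form GCGTG was not searched for.

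The angiopoietins, ligands of the receptor encoded by Tek, did not pass the test. Angpt1 lies on chromosome 15 (42424723 to 42676977) and Angpt2 on chromosome 8 (18690263 to 18741562), both on the reverse strand. Angpt1 had 3.08, 3.69 and 2.52 CPM in the TAC libraries, against 3.47, 2.95 and 3.30 CPM in the sham libraries. The groups overlapped (log2 fold change -0.16 ± 0.24, edgeR adjusted p = 0.715, 95% interval -0.69 to 0.38), and the log2 fold change was -0.0019 without TAC replicate 3 and -0.32 without TAC replicate 2. Once GC and length trends were taken out, Angpt1 had 2.34, 3.06 and 1.92 CPM in TAC against 3.76, 4.25 and 3.85 CPM in sham, without overlap. The log2 fold change was then -0.79 (edgeR adjusted p = 0.110; 0.110 to 0.998 over 13 alternatives), and the GC content of its transcript, 39.3%, was the lowest of the 10. Angpt2 had 1.95, 1.88 and 1.08 CPM in the TAC libraries, against 1.11, 1.48 and 1.11 CPM in the sham libraries. TAC replicate 3 was again the lowest of the 6 libraries, and the groups overlapped (log2 fold change 0.31 ± 0.35, edgeR adjusted p = 0.612, 95% interval -0.48 to 1.10). The log2 fold change of Angpt2 was 0.14 after removal of the trends, 0.15 without TAC replicate 1, 0.18 without TAC replicate 2 and 0.56 without TAC replicate 3.

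The VEGF ligand genes lie on chromosome 17 (Vegfa, 46016993 to 46032369), chromosome 19 (Vegfb, 6982473 to 6987651), chromosome 8 (Vegfc, 54077606 to 54187096) and chromosome 12 (Pgf, 85166635 to 85177790), Vegfc on the forward strand and the others on the reverse strand. Among them, Vegfa, the principal growth signal for vessels, had 58.4, 60.4 and 76.8 CPM in the TAC libraries, against 56.9, 40.1 and 47.5 CPM in the sham libraries. All TAC libraries were above all sham libraries, although TAC replicate 1 and sham replicate 1 nearly met. Its log2 fold change was 0.44 ± 0.18 (edgeR adjusted p = 0.150, 95% interval 0.03 to 0.84) and the lowest adjusted p in any of 15 alternatives was 0.0733. Vegfb had 292.4, 337.7 and 182.4 CPM in the TAC libraries, against 279.1, 345.6 and 407.9 CPM in the sham libraries. Its groups overlapped, with TAC replicate 3 the lowest, and its log2 fold change was -0.35 ± 0.24 (edgeR adjusted p = 0.393, 95% interval -0.90 to 0.21), against -0.13 without that library, -0.54 without TAC replicate 2 and -0.24 after removal of the trends. Vegfc had 2.46, 4.10 and 3.35 CPM in the TAC libraries, against 2.48, 1.66 and 1.66 CPM in the sham libraries. TAC replicates 2 and 3 were the highest and TAC replicate 1 lay just below sham replicate 1, so the groups overlapped. The log2 fold change was 0.68 ± 0.28 (edgeR adjusted p = 0.167, 95% interval 0.04 to 1.32). With the GC and length trends removed it was 0.32. Pgf, placental growth factor, had 9.78, 6.25 and 3.88 CPM in the TAC libraries, against 10.1, 7.39 and 6.26 CPM in the sham libraries. The groups overlapped over a wide spread (log2 fold change -0.26 ± 0.34, edgeR adjusted p = 0.668, 95% interval -1.03 to 0.52), and it was 0.015 without TAC replicate 3, -0.65 without TAC replicate 1 and -0.10 after removal of the trends.

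**Figure D3:**
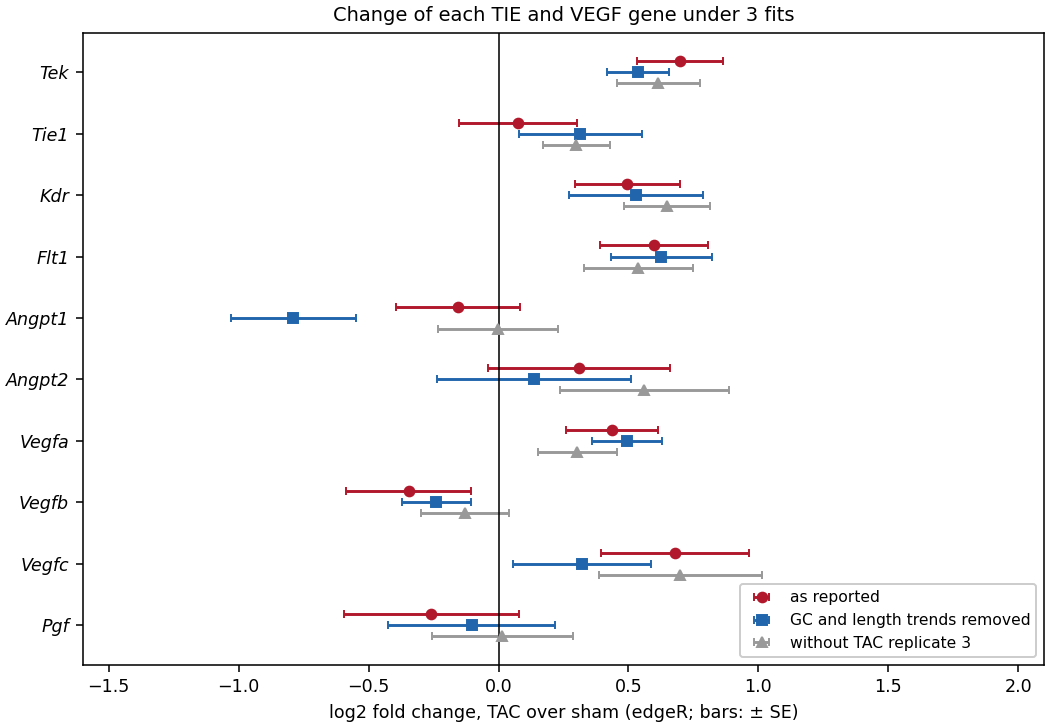
edgeR log2 fold change of TAC over sham for each member with its standard error, as reported (red), with the trends over GC content and length removed (blue) and without TAC replicate 3 (grey). Tek stays between 0.54 and 0.70, while Angpt1 is at -0.16 as reported and at -0.79 with the trends removed.

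Ratios within a library do not depend on how libraries are scaled. For 6 pairs the ratios of FPKM were compared by an exact permutation test (two-sided), which for 3 against 3 samples cannot go below p = 0.1. The Tek to Tie1 ratio was 0.120, 0.101 and 0.228 in the TAC libraries, against 0.0958, 0.0747 and 0.0948 in the sham libraries. All TAC libraries were above all sham libraries, with TAC replicate 3 far above the other 2 TAC libraries (difference of mean log2 ratios 0.67, exact permutation p = 0.1). That difference was 0.32 without TAC replicate 3 and 0.28 after the GC and length trends were taken out, where the groups no longer separated (exact permutation p = 0.5). Transcripts of Tek and Tie1 differ in GC content, at 47.1% and 57.6%, and the part of these trends in the ratio was not tested beyond that fit. Tek was also set against the summed FPKM of 15 endothelial marker genes that are not members, such as Pecam1, Cdh5 and Vwf. The ratio was 0.0112, 0.0112 and 0.0228 in TAC, against 0.0103, 0.00870 and 0.00920 in sham. All TAC libraries were again above all sham libraries (difference of mean log2 ratios 0.60, exact permutation p = 0.1), and the difference was 0.26 without TAC replicate 3 and 0.34 with the trends removed.

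The Angpt1 to Angpt2 ratio was 1.12, 1.39 and 1.66 in the TAC libraries, against 2.24, 1.41 and 2.11 in the sham libraries. The groups overlapped, with sham replicate 2 inside the TAC range (difference of mean log2 ratios -0.46, exact permutation p = 0.2). With the trends removed the difference was -0.91 (exact permutation p = 0.1). The Vegfa to Vegfb ratio was 0.0747, 0.0669 and 0.157 in the TAC libraries, against 0.0762, 0.0433 and 0.0436 in the sham libraries. The groups overlapped through sham replicate 1 (difference 0.82, exact permutation p = 0.3), and without TAC replicate 3 the difference was 0.43. With the trends removed it was 0.74 and the groups separated (exact permutation p = 0.1). The Pgf to Vegfa ratio differed by -0.77 on the log2 scale (exact permutation p = 0.2) and the Flt1 to Kdr ratio differed by 0.14 (exact permutation p = 0.7), both with overlapping groups. The Pgf to Vegfa difference was -0.31 without TAC replicate 3 and -1.18 without TAC replicate 1. After Benjamini-Hochberg adjustment no ratio of the 6 could pass in a design of this size.

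**Figure D4:**
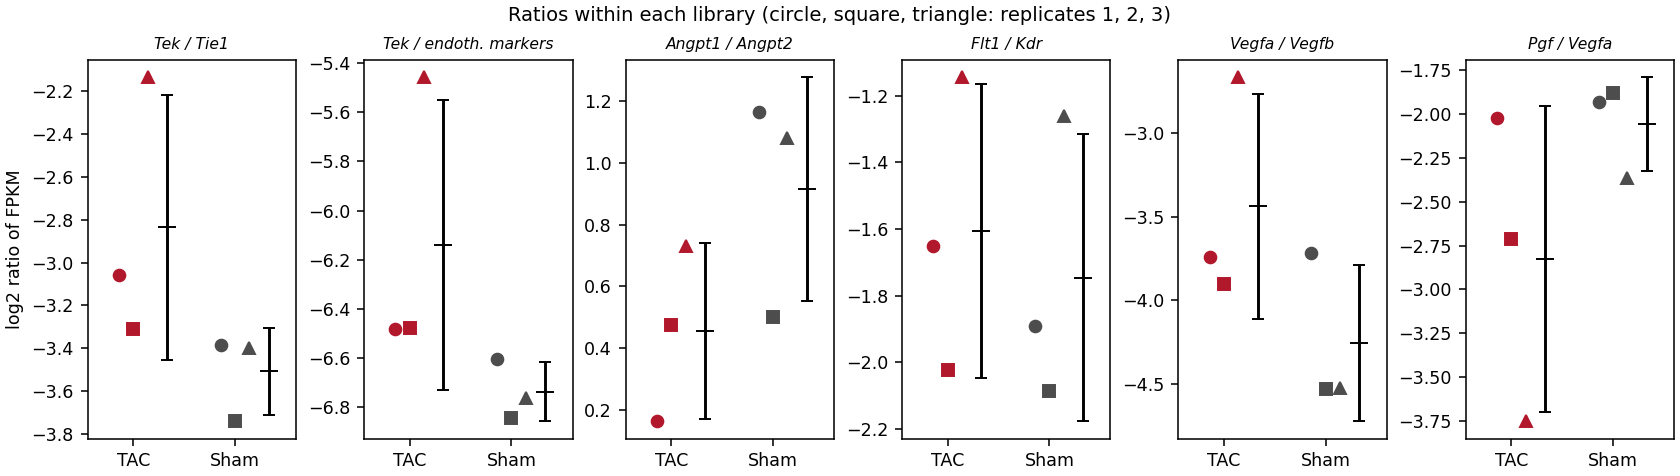
log2 ratios of FPKM within each library for 6 pairs, TAC (red) left of sham (grey), with circle, square and triangle for replicates 1, 2 and 3 and the bar showing mean ± SD (n = 3). Tek over Tie1 and Tek over the summed endothelial markers separate the groups, and TAC replicate 3 is the highest library in both.

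Markers of the cells that carry these receptors were read beside the members. The 15 endothelial markers summed to 1970, 1892 and 1196 CPM in the TAC libraries, against 1601, 1470 and 1520 CPM in the sham libraries. TAC replicates 1 and 2 were above every sham library and TAC replicate 3 below every sham library. By edgeR 0 of the 15 passed (4 had an unadjusted p under 0.05, DESeq2 called 2 and limma 0), against 28.1%, 18.8% and 5.82% of all tested genes. Their median log2 fold change was 0.20, and it was 0.014 without TAC replicate 1, 0.044 without TAC replicate 2 and 0.35 without TAC replicate 3. The most abundant by FPKM, Eng and Cdh5, an endothelial TGF-beta co-receptor and VE-cadherin, had log2 fold changes of 0.14 ± 0.28 and 0.20 ± 0.18. Emcn, endomucin of capillaries and veins, had 0.75 ± 0.23 (edgeR adjusted p = 0.0833), Erg, an ETS factor of endothelial cells, 0.98 ± 0.32 (0.0898), and Vwf, von Willebrand factor, -0.46 ± 0.18 (0.137). Without TAC replicate 3, Emcn, Egfl7, Pecam1 and Eng were called higher, with log2 fold changes of 0.99, 0.52, 0.47 and 0.43, which is 4 of 15 against 19.4% of all tested genes called in that fit. Emcn, Erg and Vwf were picked out after their values were seen. None of the listed markers was at 0 in all libraries, and the part of endothelial content in the change of Tek was not tested beyond the ratio above.

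Markers of neighbouring cell types were read likewise. Of 8 pericyte markers, Rgs5, a regulator of G-protein signalling, rose (log2 fold change 1.05 ± 0.19, edgeR adjusted p = 0.0260; median of the list -0.15). Of 5 tested smooth muscle markers Cnn1, calponin, rose (1.68 ± 0.28, edgeR adjusted p = 0.0243; median 0.54). Cnn1 had the lowest mean of the 5, 1.37 FPKM, while Acta2 was at 0.09 ± 0.27 and Smtn at -0.36 ± 0.18. The smooth muscle list of 7 genes summed to 443.2, 426.4 and 260.8 CPM in TAC against 390.5, 418.5 and 329.1 CPM in sham. Among the pericyte markers 3 of 8 estimates were positive. Rgs5 and Higd1b were higher in all TAC libraries. Notch3 (-0.42 ± 0.14, edgeR adjusted p = 0.0937) and Pdgfrb (-0.27 ± 0.12, 0.193) were lower in all TAC libraries. Of 8 fibroblast markers the proteoglycan genes Dcn (1.31 ± 0.27) and Lum (1.55 ± 0.35) rose, with a median of 0.86. The fibroblast list summed to 670.4, 624.0 and 1657 CPM in TAC against 643.2, 512.8 and 430.9 CPM in sham. The fibroblast median was 0.32 without TAC replicate 3. An unadjusted p under 0.05 was found for 3 pericyte, 2 smooth muscle and 5 fibroblast markers, against 28.1% of all tested genes. In the same order DESeq2 called 2, 1 and 3 and limma 1, 1 and 0, against 18.8% and 5.82% of all tested genes. By edgeR none of 10 ventricular cardiomyocyte markers passed (median -0.17), none of 6 tested macrophage markers (median 0.03) and none of 2 tested endocardial and venous markers (median -0.23). In these 3 lists 0 genes had an unadjusted p under 0.05, and DESeq2 and limma called 0. By FPKM, the most abundant cardiomyocyte markers were Mb, myoglobin (-0.06 ± 0.21), and Actc1, cardiac actin (-0.21 ± 0.19). Groups without overlap in CPM were found for 2 of the 10, against 34.8% of all tested genes. Myh6 (-0.47 ± 0.21) was lower and Tnnt2 (0.35 ± 0.16) higher in TAC. The most abundant macrophage markers were the complement genes C1qa (0.0019 ± 0.13) and C1qb (0.06 ± 0.13). Those of the endocardial and venous list were Plvap (-0.26 ± 0.23) and Cytl1 (-0.20 ± 0.24). Of 4 tested lymphatic markers 0 passed (2 had an unadjusted p under 0.05, DESeq2 called 2 and limma 0; median 0.45), among them Pdpn, podoplanin, at 0.79 ± 0.28 and Ccl21a, a chemokine of lymphatic vessels, at 0.08 ± 0.16. The cardiomyocyte list summed to 68898 CPM in TAC replicate 3, against 96504 to 102442 in the other TAC libraries and 97096 to 109992 in sham.

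The further genes of both pathways were described by their counts. Of 9 tested partners and signalling genes of the TIE receptors 0 passed by edgeR, against 6.99% of all tested genes (median log2 fold change 0.06). An unadjusted p under 0.05 was found for 4, DESeq2 called 2 and limma 0, against 28.1%, 18.8% and 5.82% of all tested genes. The 9 included Akt1, a kinase downstream of TIE2 (-0.34 ± 0.14, edgeR adjusted p = 0.146), and Ptpn11, the phosphatase SHP2 (0.31 ± 0.17, 0.262). Ptprb, the phosphatase VE-PTP that dampens TIE2, had 41.1 ± 3.22 CPM in TAC and 27.3 ± 5.36 CPM in sham (SD, n = 3 each; log2 fold change 0.59 ± 0.17, edgeR adjusted p = 0.0710), with all TAC libraries higher. Dok2, a docking protein that binds TIE2, had 3.19 ± 0.641 CPM in TAC and 5.54 ± 1.03 CPM in sham (SD, n = 3 each; log2 fold change -0.80 ± 0.24, edgeR adjusted p = 0.0758), with all TAC libraries lower. Groups without overlap in CPM were found for 5 of the 9, against 34.8% of all tested genes. Ptprb, Ptpn11 and Svep1 (0.66 ± 0.28, edgeR adjusted p = 0.166) were higher, and Dok2 and Akt1 lower, in all TAC libraries. Ptprb, Dok2 and Svep1 were picked out after their values were seen. Of 13 tested further VEGF ligands, co-receptors and signalling genes, Mapk14, the p38 kinase, fell (log2 fold change -0.64 ± 0.14, edgeR adjusted p = 0.0391). By edgeR none was called higher and 12 did not pass (median 0.04). An unadjusted p under 0.05 was found for 4, DESeq2 called 1 higher and 1 lower, and limma called 1, against 28.1%, 18.8% and 5.82% of all tested genes. Without TAC replicate 3, where 19.4% of all tested genes were called, edgeR also called the co-receptor gene Nrp1 (0.76 ± 0.13) and the small heat shock protein gene Hspb1 (1.12 ± 0.19) higher.

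Of 17 tested hypoxia regulators and targets, the collagen prolyl hydroxylase gene P4ha1 (log2 fold change 1.10 ± 0.21, edgeR adjusted p = 0.0297) and the mitophagy receptor gene Bnip3 (1.33 ± 0.28, 0.0352) rose and 15 did not pass, with a median of 0.19. Neither passed after removal of the GC and length trends (edgeR adjusted p of 0.0722 and 0.117). The list summed to 2262, 2101 and 2200 CPM in TAC, below the 2370, 2266 and 2418 CPM in sham. Ldha, its most abundant gene, had a log2 fold change of -0.46 ± 0.13 (edgeR adjusted p = 0.0680), with all TAC libraries lower. An unadjusted p under 0.05 was found for 7 of the 17, DESeq2 called 6 and limma 3, against 28.1%, 18.8% and 5.82% of all tested genes. Of 10 tested genes of endothelial Notch signalling and sprouting 0 passed (1 had an unadjusted p under 0.05, DESeq2 and limma called 0; median 0.03). The most abundant were Ephb4, a receptor of venous endothelium (-0.17 ± 0.13), and Aplnr, the apelin receptor (0.30 ± 0.36). Of 4 endothelial adhesion molecules 1 was tested, Icam1 (0.20 ± 0.19, edgeR adjusted p = 0.543), and it did not pass at an unadjusted p under 0.05 or by DESeq2 or limma. The 7 called genes of these lists (Rgs5, Cnn1, Dcn, Lum, Mapk14, P4ha1 and Bnip3) each passed without TAC replicate 3 and each failed edgeR in 4 or 5 of the 6 fits that left out 1 library. After removal of the trends Cnn1 (1.75, edgeR adjusted p = 0.0183) and Mapk14 (-0.51, 0.0425) still passed, while Rgs5 (0.51, 0.111), Dcn (0.62, 0.0945) and Lum (1.03, 0.102) did not. Over all tested genes 6.99% were called. Further genes of these lists were called by edgeR without TAC replicate 3, where 19.4% of all tested genes were: Myh11 (0.75), Tagln (0.81), Higd1b (0.82) and Nrarp (0.68) higher, and Notch3 (-0.51) and Ldha (-0.43) lower in TAC.

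**Figure D5:**
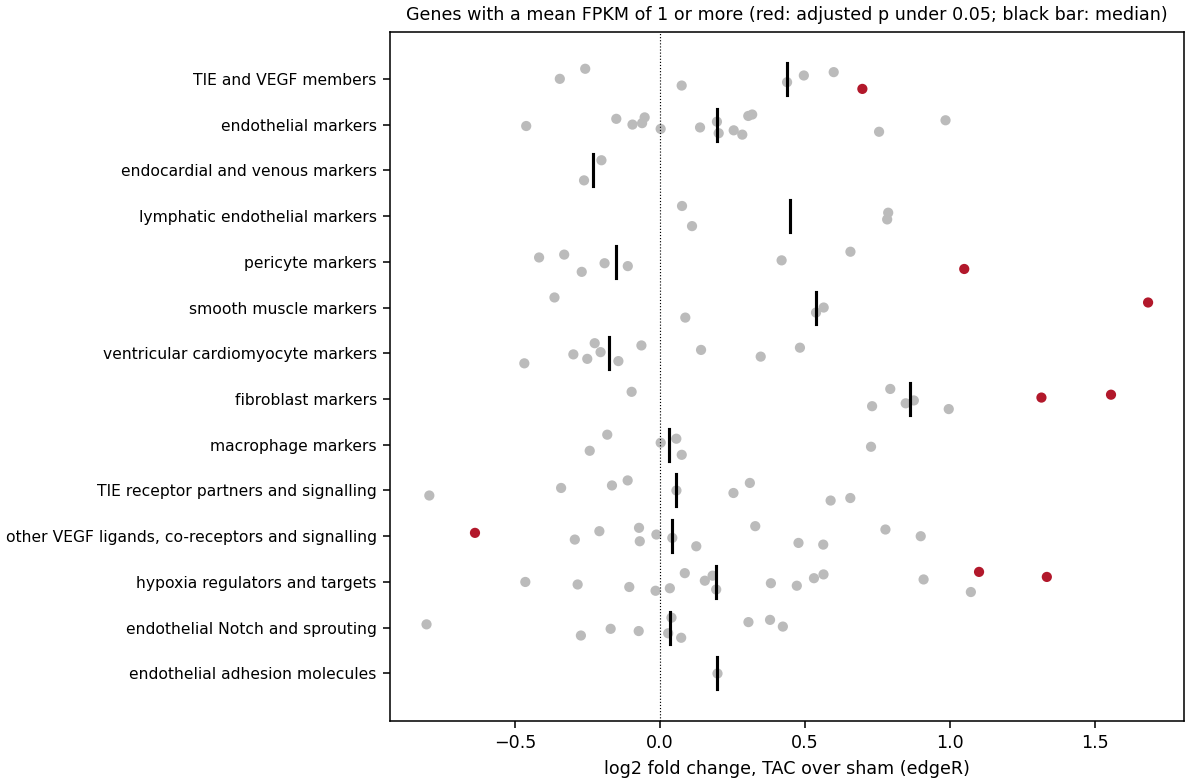
edgeR log2 fold change of TAC over sham for the tested members and the tested genes of each list, 1 point per gene, with called genes in red and the median as a black bar. Tek at 0.70 is the called member, and the 15 endothelial markers spread from -0.46 to 0.98 with none called.

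The 2 members with the lowest adjusted p were compared with every other tested gene by the mean absolute difference of log2 CPM, centred on the gene, over the 6 libraries. The 5 genes most like Tek were Znrd1as, Tmem62, Qk, Igbp1 and Dstn, at differences of 0.037 to 0.045. The 5 most like Flt1 were Dnajb9, Thbd, Taf1a, Klhl24 and Slc43a3, at 0.059 to 0.066. Thbd, thrombomodulin of the endothelial surface, had a log2 fold change of 0.61 ± 0.20 and Dstn, the actin-severing protein destrin, of 0.69 ± 0.14. Fold changes near those of Flt1 and Tek follow from how these genes were chosen, and shared regulation was not tested. No member was among either set of 5.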

How the data were processed

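Poly(A) RNA of 6 left ventricle samples, 3 TAC and 3 sham, was sequenced. Per the file headers, the table deposited by the authors holds an FPKM column and a column of estimated counts for each library, over 24602 genes. StringTie 1.3.4d, HISAT2 2.0.4 and cutadapt 1.9 are named in the submitters' processing notes, with GRCm38 as build. Not given in the sources used here are the way counts were derived, the annotation release and the strand setting. The deposited estimated counts were whole numbers and were not rounded. They are estimates, so counting error understates their uncertainty.

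A mean FPKM of at least 1 was required of a gene. The 8795 genes kept were scaled by TMM and tested with edgeR 4.0.16 (estimateDisp, glmQLFit and glmQLFTest, R 4.3.3), without a replicate block. The SE is the size of the log2 fold change over the square root of F, and 95% intervals use the fit's degrees of freedom. Medians of lists are over tested genes. Per-library trends over GC content and length (longest GENCODE M21 transcript) were smoothed by lowess (span 0.3, 3 rounds) and passed as offsets, available for 99.9% of tested genes. Ratios were tested with SciPy 1.17.1. The edgeR script was tested on simulated counts of 8795 genes, with 100 changed 2-fold and 100 changed 4-fold. It recovered 59% of the 2-fold and 96% of the 4-fold changes. Of 170 calls, 15 fell on unchanged genes.

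Members and lists were chosen with earlier results of these data known. Named were the members, up to 4 called genes of each list by adjusted p (otherwise up to 2 of the highest mean FPKM), and the 5 nearest profiles of 2 members. Alternatives were DESeq2 1.42.0, limma 3.58.1 on log2(FPKM + 1) and on log2(FPKM + 0.1), other scalings and filters, the block and leaving out each library.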

Additional observations from a re-analysis of the deposited data

How the results depend on the processing

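The call of Tek held with DESeq2 size factors, the DESeq2 test and the GC and length trends removed, and without TAC replicate 3. It was lost in 11 of 15 alternatives: without each of the other 5 libraries, with library totals, both limma fits, the replicate block, filterByExpr and no filter. The number of members called, 1 as reported, was 2 with DESeq2, 0 with totals, either limma fit, the block, filterByExpr or no filter, and 0 to 2 when 1 library was left out. Genes called higher in TAC, 414 as reported, numbered 157 with totals, 1031 with DESeq2, 174 and 170 with limma (pseudocounts of 1 and 0.1), 141 with the replicate block, 242 with the trends removed and 163 with no filter. Genes called lower, 201 as reported, numbered 617 with DESeq2, 338 and 336 with limma, 42 with the block and 122 with no filter. The share of higher genes among calls, 67.3% as reported, was 34.0% and 33.6% with limma, 77.0% with the block and 47.7% without TAC replicate 3. Leaving out 1 library gave 9 to 813 higher, the extremes without sham replicate 2 and without TAC replicate 3, and 3 to 892 lower, at the same 2 libraries. The causes were not tested.

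Whether equal replicate numbers mark paired samples is not given. Deviations from the group means correlated across genes at -0.09, 0.13 and -0.04 between TAC and sham libraries of equal number. For unequal numbers the correlations ran from -0.22 to 0.23. With 3 libraries a group these values cannot show whether samples were paired. Library totals moved the median log2 fold change of all tested genes to -0.14, the limma fits to -0.13 and -0.16, filterByExpr to -0.11 and no filter to -0.11, and the member values under them include that shift. Tie1 then changed sign, to -0.075, -0.12, -0.12, -0.014 and -0.021, and ran from -0.12 to 0.30 when 1 library was left out. Pgf ran from -0.65 to 0.015 and the log2 ratio of Flt1 to Kdr from -0.092 to 0.38 in those fits. The other members and ratios kept their direction in all alternatives run. With 3 libraries a group, adjusted p near 0.05 move with 1 library, and Angpt1 and Angpt2 rest on 73 to 238 estimated counts per library.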
